A study of Mus musculus with 7 samples.

Results

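The cadherins and protocadherins are adhesion proteins of the cell surface, and Fos peaks at their genes were counted here in chromatin of the mouse hippocampus. The genes were every protein-coding gene on chromosomes 1 to 19 of the RefSeq table of GRCm38.p6 whose symbol starts with Cdh and a digit, or with Pcdh. That rule uses names and no measured value. It gave 90 of 20661 protein-coding genes. They were 18 classical cadherins, 5 other cadherins, 57 protocadherins in the alpha, beta and gamma clusters, and 10 protocadherins outside the clusters.

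The mice were wild-type C57BL/6J, 2 months old, and received saline or kainic acid. The latter activates glutamate receptors and sets off seizures, and it was given into the peritoneum as 2 injections of 10 mg/kg, 30 min apart. The hippocampi were taken 1 h after the first injection from mice with seizures of level 4. Chromatin bound by Fos, which forms AP-1 dimers with Jun proteins, was collected with an antibody and sequenced (ChIP-seq). There were 3 saline and 3 kainic acid libraries, and 1 input library whose values were not used here. The number of animals behind a library is not in the labels, so p-values measure only the spread between these libraries, which may be technical. Hippocampal tissue holds many cell types, so fewer cells with bound Fos and less binding per cell cannot be told apart.

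Classical cadherins bind their own kind on the facing cell in the presence of calcium, and their inner ends hold catenins, which join them to actin. Protocadherins of the alpha and gamma clusters are made by joining 1 of many variable exons, each with its own promoter, to shared exons. The beta genes have short spans that do not overlap. The mixture of clustered protocadherins in a neuron sets it apart from its neighbours. Protocadherins outside the clusters, mostly of the delta group, take part in axon growth, synapse number and cell sorting.

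The deposited lists held 15009, 63197 and 29650 peaks in kainic acid replicates 1, 2 and 3, and 7, 3277 and 2 peaks in saline replicates 1, 2 and 3. No read totals come with the lists, so depth is unknown. Peaks of all lists that overlapped by at least 1 bp were merged into 68873 regions. Merged regions that at least 2 kainic acid libraries called are named kainic acid regions below, and there were 26862, of which 11937 were in all 3 kainic acid lists. A gene has a region when one lies in its span or within 10 kb of it. Where 1 kainic acid library was left out, a region had to be called in both others. A region in exactly 2 lists was then lost with either of its lists, so such counts mostly restate list membership. Of the markers of hippocampal neurons, 8 of 10 had a kainic acid region where genes of their lengths give 5.77, and Calb1 and Neurod6 had none. The same counts were 4 of 6 for astrocytes (2.88 by length), 2 of 5 for oligodendrocytes (2.04), 3 of 6 for endothelial cells (3.31) and 3 of 6 for liver (2.30). Peaks near markers do not identify a tissue, so these counts check the label only weakly.

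After kainic acid, 54, 63 and 57 of the 90 genes had a peak within 10 kb in replicates 1, 2 and 3. With saline, 0, 6 and 0 genes had one. Each kainic acid library lay above each saline library, with means of 58 ± 4.58 and 2 ± 3.46 genes (SD, n = 3 each) and a difference of 56. By a two-sided exact permutation test over libraries p was 0.1, and no assignment of 3 against 3 can give less. Across all protein-coding genes, 27.7%, 62.6% and 42.7% had a peak of kainic acid replicates 1, 2 and 3, and 17.9% had one of saline replicate 2. The lists of saline replicates 1 and 3 reached 3 and 0 genes in all, so 0 cadherins there carries little weight. The kainic acid numbers are shares of 60%, 70% and 63.3% and rest in part on the clusters, where many genes count the same peaks. Outside the clusters, 19, 28 and 22 of 33 genes had a peak, in the order of the lengths of the lists.

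A kainic acid region lay within 10 kb of 56 of the 90 genes (62.2%), against 41.8% of all protein-coding genes. A region in all 3 kainic acid lists lay near 54 of them (60%), against 25.0% of all genes. Gene length bears on both shares, because a longer span catches more regions. Of genes under 10 kb, 23.5% had a region, with a mean of 0.333 regions, and the 55 genes over 1000 kb all had one, with a mean of 16.3. Genes were therefore read against all protein-coding genes of their own length class (edges at 10, 30, 100, 300 and 1000 kb). The number that length gives for a group is the sum of these class shares, or class means, over its genes. For the 90 genes it was 52.5 genes with a region in at least 2 lists, where 56 were counted. For regions in all 3 lists it was 37.6, where 54 were counted, and 35 of these 54 are clustered genes that share regions.

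Outside the clusters, 21 of 33 genes (63.6%) had a region and length gives 22.1. With regions in all 3 lists the order turned, with 19 counted and 16.8 by length, so these genes had a region about as often as others of their length. Their summed number of regions was 114 where the class means give 143, and it was below the number given by length in each of the 10 alternative settings. Of the 33 genes, 10 lay above their class mean and 23 below it. The 3 genes Cdh12, Pcdh15 and Cdh23, singled out after their values were seen, had 8 regions in sum where class means give 41.3. The other 30 genes had 106 where class means give 102. Genes far above their class mean stayed among the 30, so this split cannot show what the gap rests on. Against the class medians, which lie below the means, 12 of the 33 genes were above, 11 at and 10 below the median. The regions were spread unevenly. There were 12 genes with none, 8 with 1 to 3 and 13 with 4 or more, and Cdh13 and Pcdh9 together held 29.8% of the 114. Of the 114 regions, 104 (91.2%) touched the gene span, 55 were in all 3 kainic acid lists, 0 held a peak of saline replicate 2, and 0 lay within 10 kb of another protein-coding gene outside the family. Of the 19767 kainic acid regions near any protein-coding gene, 17339 touched a gene span and 8586 were in all 3 kainic acid lists. Of the same 19767, 2.43% held a peak of saline replicate 2 and 14.0% lay near more than 1 gene.

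**Figure D1:**
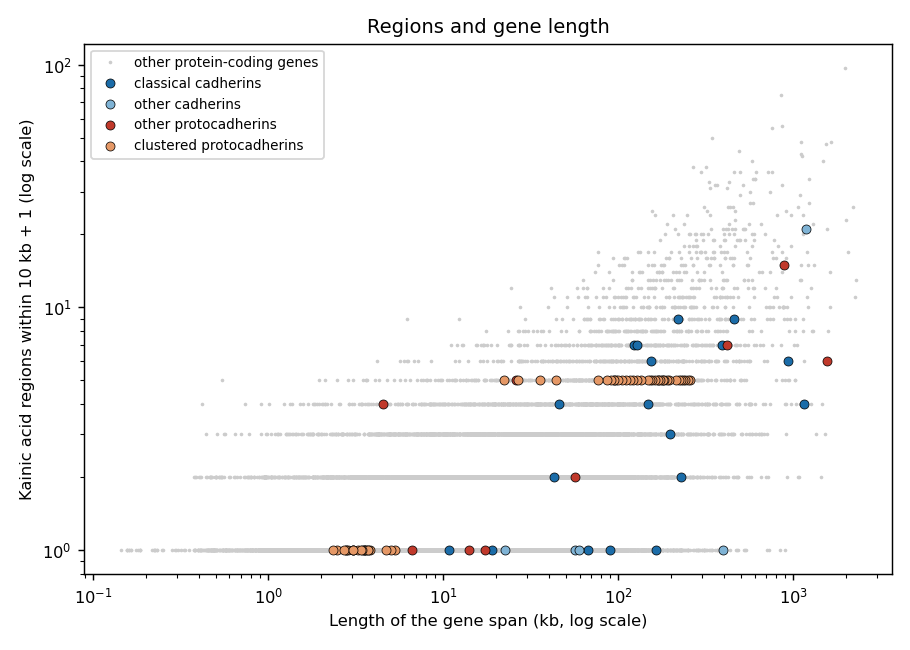
Kainic acid regions within 10 kb of each protein-coding gene, plus 1, on a log scale, against the length of the gene span in kb on a log scale; grey points are all other genes and coloured points are the 4 classes of cadherins and protocadherins. Genes of the alpha and gamma clusters form a level row at 4 regions (drawn at 5) because they share the same regions, and the beta genes lie at 0 regions.

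Per library, 74, 251 and 143 peaks of kainic acid replicates 1, 2 and 3 lay within 10 kb of the 90 genes. These were 0.497% (95% Clopper-Pearson interval 0.390 to 0.624), 0.401% (0.353 to 0.453) and 0.486% (0.410 to 0.572) of the autosomal peaks of each list. The intervals cover counting error only. The mean share was 0.461% ± 0.0526 (SD, n = 3), and the intervals of the 3 lists overlapped. The windows around these genes made up 0.880% of the windows around all protein-coding genes (10.7 of 1220 Mb). Peak density in them was 6.89, 23.4 and 13.3 per Mb, and 8.86, 39.0 and 18.0 per Mb around all genes. In each of the 3 libraries the family taken whole thus held fewer peaks per Mb than genes at large, with a mean ratio of 0.705 ± 0.0941 (SD, n = 3). This density was not matched for gene length. The windows of Cdh12, Pcdh15 and Cdh23, singled out above, are wide, at 1170, 1574 and 414 kb. In replicates 1, 2 and 3 they held 1, 8 and 4 peaks at Cdh12, 3, 10 and 7 at Pcdh15, and 0, 4 and 0 at Cdh23. The ratio without these 3 genes was not computed.

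Of the classical cadherins, 13 of 18 (72.2%) had a region and length gives 13.2. They held 57 regions where length gives 76.6, and this number was below that given by length in all 10 alternative settings. These settings use the same lists and are not independent. The largest shortfall of a single gene was at Cdh12, singled out after its value was seen, with 3 regions where its class mean is 16.3. The type I cadherins had 3 of 5 genes with a region (3.19 by length) and 19 regions (15.3 by length). Cdh2 encodes N-cadherin, which holds both sides of excitatory synapses together, and lies at chr18:16588877-16809246. Peaks of kainic acid replicates 1, 2 and 3 numbered 7, 17 and 7 there. It had 8 regions, 6 of them in all 3 lists, where its class of 100 to 300 kb had a mean of 3.50 and 9.72% of that class had more. Cdh4, which encodes R-cadherin, had 1, 18 and 8 peaks and also 8 regions. Its class of 300 to 1000 kb had a mean of 8.77, and 35.6% of that class had more. Only 1 of these 8 regions was in all 3 lists, and 1 region was left without replicate 2 or without replicate 3. So the same count stood on all 3 libraries at most regions of Cdh2 and mainly on replicates 2 and 3 at Cdh4. Cdh3, which encodes P-cadherin of epithelia, had 0, 3 and 3 peaks. Its 3 regions all lay outside the span, from 2860 bases past its higher coordinate end, and 0 were left without replicate 2 or without replicate 3. Cdh1, which encodes E-cadherin of epithelia, and Cdh15, which encodes M-cadherin of muscle, had no region. Their peaks numbered 0, 1 and 0 at Cdh1 and 0, 2 and 0 at Cdh15.

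Of the type II cadherins, 10 of 13 had a region (9.97 by length), and together they held 38 regions where length gives 61.3. Cdh12 (chr15:20448878-21598421) had 1, 8 and 4 peaks in kainic acid replicates 1, 2 and 3 and 3 regions, where genes over 1000 kb had a mean of 16.3 and 81.8% of them had more. Cdh18 had 2, 9 and 7 peaks and 5 regions, where genes of 300 to 1000 kb had a mean of 8.77 and 52.0% of them had more. Without replicate 2 each of the pair had 1 region, and without replicate 3 they had 1 and 2. Of the 7 type II genes of 100 to 300 kb, 3 lay above the class mean of 3.50 (Cdh9, Cdh22 and Cdh11) and 4 below it (Cdh6, Cdh10, Cdh20 and Cdh7). Cdh9, which takes part in the synapses of mossy fibres on CA3 cells, had 4, 8 and 7 peaks and 6 regions, 4 of them in all 3 lists. Cdh22 had 1, 10 and 6 peaks and 6 regions, of which 1 was left without replicate 2 or without replicate 3. Cdh11 had 4, 7 and 7 peaks and 5 regions, with 2 left without replicate 3 and 3 without replicate 2. Cdh8, a longer gene that marks subsets of forebrain neurons, had 4, 12 and 9 peaks and 6 regions, 4 of them in all 3 lists. The mean of its class of 300 to 1000 kb was 8.77. Cdh6 and Cdh10 had 3 and 2 regions, and Cdh20 had 1. Without replicate 2 or without replicate 3, Cdh10 had 1 and Cdh20 had 0. Cdh5, which encodes VE-cadherin of blood vessel walls, had 1, 2 and 1 peaks and 1 region in all 3 lists. Cdh7, Cdh19 and Cdh24 had none, although 81.0% of genes in the class of Cdh7 had one.

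Promoter sequences could be read for 21 of the 90 genes, from RefSeq promoters of GRCm38.p6 that run from 250 bases before to 50 after a start. The other 69 were not matched in that table. A kainic acid region overlapped a promoter of 3 of the 21 (Pcdh17, Pcdh9 and Cdh9), and 5.82% of the 16456 genes with a promoter had one. The peaks themselves reached the promoter in replicates 2 and 3 at Pcdh17 and Pcdh9, and in replicate 2 only at Cdh9. At Pcdh9 the peak of replicate 2 covered 6 of the 300 bases. A peak of kainic acid replicate 2 overlapped 5 of the 21 (also Cdh22 and Pcdh7), against 14.2% of genes, and a peak of saline replicate 2 overlapped 1 (Cdh22), against 7.32%. Of the 21 genes, 5 had a region within 1 kb of a start, against 11.9% of genes with a promoter. The 3 promoters that follow show 3 arrangements, a window wholly under a peak, a window partly under one, and a window with a kainic acid peak at one end and a saline peak at the other. Each runs 5′ to 3′ on the strand of the gene, and capitals mark the bases under the peak of kainic acid replicate 2. Pcdh17 (chr14:84443313-84443612, plus strand) encodes a delta-2 protocadherin of synapses. Its peaks over the promoter had a fold of 10.9 in replicate 2 and 7.62 in replicate 3, all 300 bases lay under the former, and the summit was 817 bases past the start. In Cdh9 (chr15:16728665-16728964, plus strand) 117 bases lay under the peak, and the summit lay 948 bases before the start, with a fold of 9.72. In Cdh22 (chr2:165234688-165234987, minus strand) 38 bases lay under a peak with a fold of 3.49, and a peak of saline replicate 2 with a fold of 5.07 overlapped the other end of the window.
Pcdh17: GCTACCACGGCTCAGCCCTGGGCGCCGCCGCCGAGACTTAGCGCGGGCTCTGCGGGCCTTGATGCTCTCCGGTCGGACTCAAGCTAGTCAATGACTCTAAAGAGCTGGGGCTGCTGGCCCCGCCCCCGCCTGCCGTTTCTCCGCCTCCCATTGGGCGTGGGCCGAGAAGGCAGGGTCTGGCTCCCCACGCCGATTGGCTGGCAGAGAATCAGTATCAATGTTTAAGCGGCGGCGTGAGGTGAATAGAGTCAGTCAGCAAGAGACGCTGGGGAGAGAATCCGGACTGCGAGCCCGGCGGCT
Cdh9: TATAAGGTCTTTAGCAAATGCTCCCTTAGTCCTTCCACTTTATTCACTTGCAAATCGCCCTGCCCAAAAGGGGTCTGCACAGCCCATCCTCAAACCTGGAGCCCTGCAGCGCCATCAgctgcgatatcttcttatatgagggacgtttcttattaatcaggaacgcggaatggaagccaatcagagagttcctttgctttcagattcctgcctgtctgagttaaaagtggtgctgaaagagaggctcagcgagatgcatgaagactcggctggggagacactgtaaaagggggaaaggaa
Cdh22: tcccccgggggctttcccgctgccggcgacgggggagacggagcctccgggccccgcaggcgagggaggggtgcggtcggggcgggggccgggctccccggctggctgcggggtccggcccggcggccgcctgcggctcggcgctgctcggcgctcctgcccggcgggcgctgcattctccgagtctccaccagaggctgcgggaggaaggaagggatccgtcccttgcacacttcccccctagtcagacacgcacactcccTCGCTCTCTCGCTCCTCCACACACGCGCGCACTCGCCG

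The 24 promoters of these 21 genes were searched on both strands for 3 forms of the AP-1 and CRE motifs that Fos-containing dimers bind. The AP-1 motif TGACTCA, which reads TGAGTCA on the other strand, was in 0 of the 24 and in 4.70% of 20084 promoters. TGACGTCA, the CRE form, was in 0 and in 2.30%. The looser TGANTCA, which includes every TGACTCA, was in 0 and in 7.06%. With 24 windows these shares give few matches in any case. The windows of Pcdh17, Cdh9 and Cdh22 shown above thus hold none of these letters, and the summits at Pcdh17 and Cdh9 lay outside the windows. No genome came with the data, so the sequence under the peaks themselves was not read.

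The other cadherins had a region at 1 of 5 genes, where length gives 3.38. That gene was Cdh13, which encodes T-cadherin, a cadherin tied to the membrane by a lipid anchor in place of a membrane-spanning part. It lies at chr8:118140017-119324929 and had 13, 43 and 21 peaks in kainic acid replicates 1, 2 and 3. Its 20 regions were the most of any of the 33 genes outside the clusters, 11 of them were in all 3 lists, and 27.3% of genes over 1000 kb had more. Without replicate 2 it had 11 regions and without replicate 3 it had 12. Cdh23, which encodes part of the tip link of hair cells in the ear, had 0, 4 and 0 peaks and no region, where 92.2% of genes of 300 to 1000 kb had one. Cdh16 of the kidney had 0, 2 and 0 peaks, and Cdh17 of the gut and Cdh26 had 0 in each kainic acid list.

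**Figure D2:**
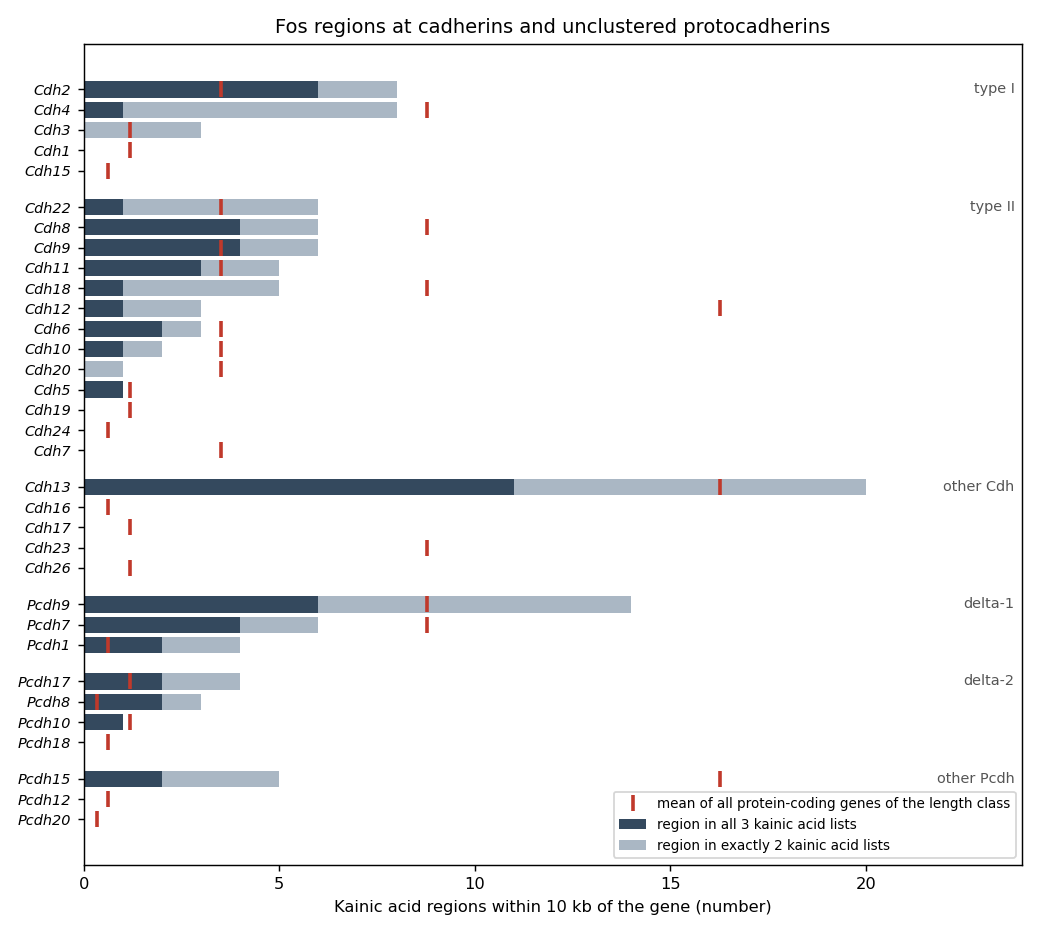
Kainic acid regions within 10 kb of each of the 33 genes outside the clusters; dark bars are regions in all 3 kainic acid lists, light bars regions in exactly 2, and red marks the mean of all protein-coding genes of the same length class. Cdh13 leads with 20 regions, Cdh2 has 6 of its 8 in all 3 lists, and Cdh12 and Pcdh15 lie far below their class mean of 16.3.

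Of the protocadherins outside the clusters, 7 of 10 (70%) had a region, where length gives 5.54. They held 37 regions (38.7 by length), and 19 in all 3 lists (17.6 by length), so the order turned with the setting. The delta-1 genes Pcdh1, Pcdh7 and Pcdh9 all had regions, 24 in sum, where length gives 18.2. Pcdh9 (chr14:93013700-93892834) had 10, 32 and 18 peaks in kainic acid replicates 1, 2 and 3 and 14 regions, 6 of them in all 3 lists and 7 left without replicate 2 or without replicate 3. Pcdh7 had 6, 7 and 9 peaks and 6 regions, 4 of them in all 3 lists, and was a gene where replicate 2 did not have the most peaks. The class of Pcdh9 and Pcdh7, 300 to 1000 kb, had a mean of 8.77. Pcdh1 is short, at 26.1 kb, and had 2, 9 and 4 peaks and 4 regions, with 2 left without replicate 2 or without replicate 3, where 0.898% of genes of 10 to 30 kb had more than 4.

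The delta-2 genes had a region at 3 of 4 (1.69 by length) and held 8 regions (3.33 by length). Pcdh8, also called arcadlin, is made by hippocampal neurons after seizures and long-term potentiation and takes N-cadherin off the synapse. It spans 4.54 kb (chr14:79766772-79771312) and had 2, 3 and 4 peaks in the kainic acid lists, and 2 in saline replicate 2. Its 3 regions gave 12.2 regions per 100 kb of window, the highest density of the 33 genes, and 0.518% of genes under 10 kb had more than 3. They lay at chr14:79765417-79766424, outside the span, at chr14:79766497-79766951, across the lower end of the span, and at chr14:79771942-79772453, 630 bases past the higher end. The first had folds of 4.08, 7.56 and 5.76, the second 4.80, 2.91 and 4.00, and the third was called in replicates 2 and 3 only, with 6.76 and 3.60. These folds were moderate within their lists, as the best of the 3 had a mean percentile of 30.2. Next in density among genes with at least 3 regions were Pcdh1 at 8.67, Cdh3 at 4.54, Cdh22 at 4.18 and Cdh9 at 4.04 per 100 kb.

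Pcdh17 had 3, 8 and 4 peaks and 4 regions, with 2 left without replicate 2 or without replicate 3, where 4.75% of genes of 30 to 100 kb had more. Its strongest region covers the promoter printed above. Pcdh10 had 1 region in all 3 lists, 1792 bases outside its span. Pcdh18, the remaining delta-2 gene, had 0 peaks in each of the 6 lists. Pcdh15, the partner of Cdh23 in the tip link, had 3, 10 and 7 peaks and 5 regions over 1554 kb, with 2 left without replicate 2 and 3 without replicate 3, where 74.5% of genes over 1000 kb had more. Pcdh12 of blood vessel walls had 0, 1 and 0 peaks and Pcdh20 had 0, 2 and 1, and neither had a region. In all, 12 of the 33 genes had no region, and 5 of them (Cdh17, Cdh19, Cdh24, Cdh26 and Pcdh18) had no kainic acid peak in any list. The other 7 had peaks in replicate 2, the longest list, and none in replicate 1, the shortest of the kainic acid lists.

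The best region of each gene, among those found in all 3 lists, was ranked by fold within each list, where percentile 0 is the highest fold. The fold is the authors' value for each peak over its background, and it was not scaled between libraries. The strongest region of the family near a gene was inside Cdh13 at chr8:118952294-118953470. Its folds were 10.0, 22.4 and 9.73 in replicates 1, 2 and 3, at percentiles 1.74, 0.199 and 2.05. A region inside Cdh18 (chr15:22914166-22915046) followed with folds of 8.88, 14.8 and 10.9 and a mean percentile of 1.86. In Cdh11, which encodes a cadherin of mesenchyme and neurons, the best region (chr8:102725202-102726135) had folds of 8.42, 9.62 and 10.0 and a mean percentile of 3.93. These 3 regions were in the top 6.08% of every list. The best regions of the next 7 genes had mean percentiles between 7.15 and 11.1, in the order Pcdh15, Cdh12, Cdh4, Pcdh1, Pcdh7, Cdh9 and Pcdh17. Each of these 7 except Pcdh15 stood lower in replicate 1 than in the other two lists. The gene table has no exons, so it was not told whether these regions are exonic or intronic.

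**Figure D3:**
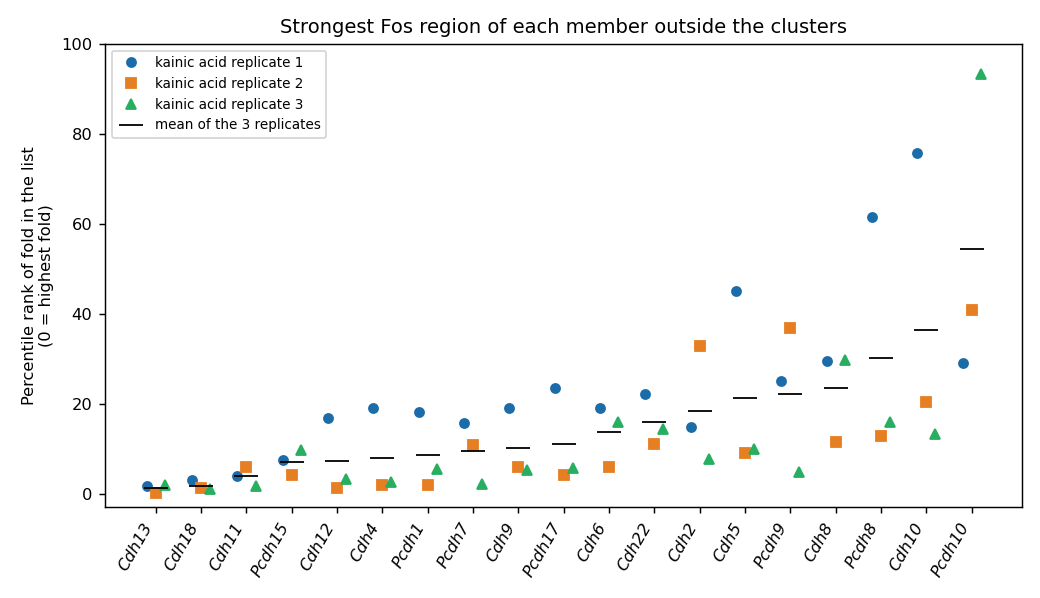
Percentile rank of fold in each kainic acid list (0 is the highest fold) for the strongest region in all 3 lists near each of 19 genes; symbols are the 3 replicates and lines their mean. The points of Cdh13, Cdh18 and Cdh11 lie together near the top of all 3 lists, while those of Pcdh8, Cdh10 and Pcdh10 spread widely.

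Saline replicate 2 had 8 peaks within 10 kb of 6 genes, which is 0.246% of its autosomal peaks (interval 0.106 to 0.483). They were 2 at Cdh22, 2 at Pcdh8 and 1 each at Cdh4, Cdh11, Cdh23 and Cdh24. Those of Cdh23 and Cdh24 also lay within 10 kb of a gene outside the family, Psap for the former and Acin1 and Psmb11 for the latter. Their folds ran from 3.80 to 5.07. Of the 8, 1 merged with a kainic acid peak, at Pcdh8 and in 1 list, and 0 lay in a kainic acid region. Of all 3258 autosomal peaks of that list, 33.1% merged with a kainic acid peak and 17.0% lay in a kainic acid region, and 8 peaks are too few to read a difference from these shares. Cdh22, Cdh4, Cdh11 and Pcdh8 had both saline peaks and kainic acid regions.

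The clustered protocadherins lie side by side on chromosome 18, with 14 alpha, 22 beta and 21 gamma genes. A region lay within 10 kb of 35 of the 57 genes (61.4%), and length gives 30.5, but these 35 genes shared 8 distinct regions. The alpha cluster (chr18:36930285-37188897) had 3, 7 and 3 peaks in kainic acid replicates 1, 2 and 3 and 4 regions, 2 of them in all 3 lists. The gamma cluster (chr18:37661775-37841873) had 3, 14 and 5 peaks and 4 regions, 3 of them in all 3 lists. The beta cluster (chr18:37264998-37521419) had 0 peaks in each of the 6 lists, also within 10 kb on each side, a stretch of 276 kb. Its 22 short genes would have 5.16 with a region by length, but they are neighbours and not 22 separate chances. The counts of 14, 0 and 21 genes were the same when any 1 kainic acid library was left out, with a combined share of 61.4% each time. This was fixed in advance, as every alpha and gamma gene had a region in all 3 lists and the beta cluster had no peak.

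Within the alpha and gamma clusters the regions stood at one end, and 2 of the 4 gamma regions lay past the end of the cluster, within 10 kb of Diaph1. All 8 regions also lay within 10 kb of 3 genes that the name rule leaves out of the family (Gm37013, Gm38666 and Gm38667). Each of these 3 lay near both the alpha and the gamma regions, so their spans run across the clusters and are not separate neighbours. From the start of Pcdha1 to 10 kb before Pcdhac2, the variable array of the alpha cluster, there were 0 peaks over 203 kb in any list. The remaining 55.2 kb, which hold Pcdhac2 and, as background, the shared exons of the cluster, had 2, 7 and 3 peaks in the kainic acid lists. The gamma array from Pcdhga1 to 10 kb before Pcdhgc3, 135 kb, had 0, 1 and 0 peaks, and the last 45.5 kb had 2, 10 and 3. All 3 kainic acid lists showed this arrangement. At the alpha end, chr18:37148790-37149676 had folds of 5.20, 9.03 and 5.89, and chr18:37188826-37189651, at the last bases of the cluster, had 5.34, 8.56 and 4.45. At the gamma end, chr18:37818780-37820126 had folds of 4.94, 14.5 and 8.09, and chr18:37823605-37824902 had 5.77, 9.47 and 5.93. The former reaches the start of Pcdhgc5, at 37819546. Variable exons of these clusters resemble each other, and a mapping quality of 30 appears in the names of the peaks, a filter that can remove reads matching several places. The part of that filter in the empty arrays was not tested. Between the alpha and beta clusters, 29.0 kb past the former, a region at chr18:37217881-37218312 was called in replicates 2 and 3 with folds of 7.17 and 3.46.

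**Figure D4:**
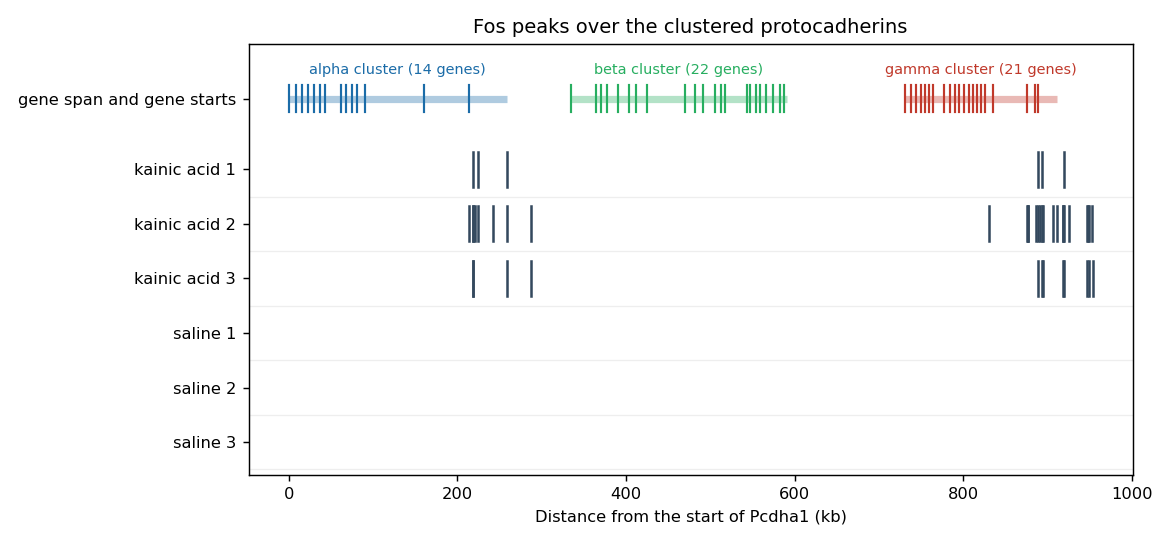
Peaks of each of the 6 lists over the 3 protocadherin clusters, by distance from the start of Pcdha1 in kb; coloured bars are the clusters, ticks on them the gene starts, and dark ticks the peaks. Kainic acid peaks stand at the right end of the alpha and gamma clusters and none stands in the beta cluster, while the saline rows are empty.

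Other genes of cadherin biology were counted from lists chosen by function. All 10 catenins and adaptors had a region, where length gives 6.92. Ctnnd2, which encodes delta-catenin of dendrites, had 13 regions (8 in all 3 lists), above its class mean of 8.77. Ctnna2, which encodes the neuronal alpha-catenin, had 12 (7 in all 3 lists), below its class mean of 16.3. Of other genes of the cadherin superfamily, 12 of 22 had a region (12.5 by length). Clstn2, a calsyntenin of synapses, led with 26 regions, of which 15 were in all 3 lists, and Fat3 had 11. None was found at Celsr2, Fat1, Dchs1, Clstn3, Cdhr1, Cdhr5, Dsc1, Dsc2, Dsc3 and Ret. Of 8 autosomal regulators of the protocadherin clusters, such as Ctcf, 5 had a region (5.23 by length), with 5 at Stag1 and 3 at Smchd1 and none at Smc3, Dnmt3b and Setdb1. The superfamily genes and the cluster regulators had regions about as often as genes of their length.

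Many cadherin genes border gene-poor stretches, so regions between genes were given to the nearest protein-coding gene. A cadherin or protocadherin was nearest to 76 regions farther than 10 kb from any gene, 49 of them in all 3 lists, and 21 genes of the family took part. These were 1.10% of the 6880 such regions, while the family is 0.436% of genes. Among all 26862 kainic acid regions 11937 were in all 3 lists, and the number among the 6880 is not given here. More than 500 kb from any gene the share was 28 of 427 (6.56%), but the family also borders 10.5% of that territory. Per Mb of territory, the family had 4.10, 2.43 and 1.23 regions at 10 to 100, 100 to 500 and over 500 kb, where all genes had 7.77, 5.03 and 1.98. Up to 10 kb from a gene it had 17.0 against 10.3 per Mb, which rests on 10 regions. The stretches next to these genes were thus large and held fewer regions per Mb than others beyond 10 kb.

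**Figure D5:**
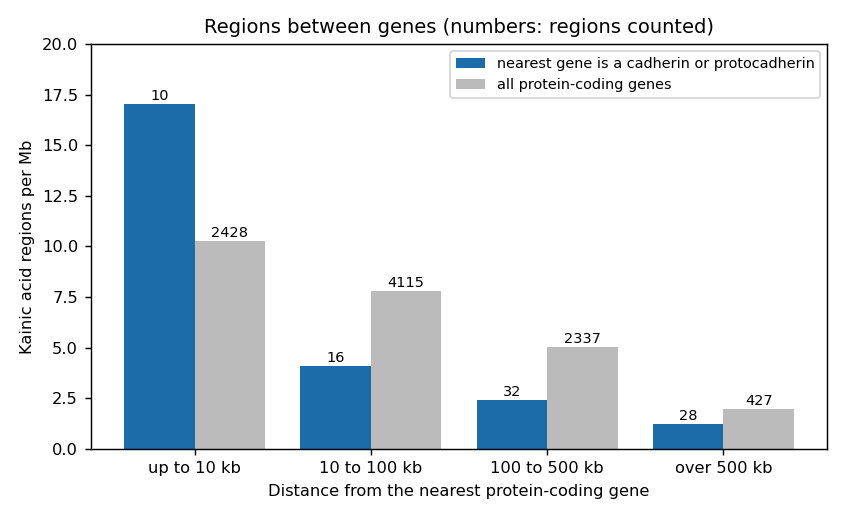
Kainic acid regions per Mb of territory between genes, by distance from the nearest protein-coding gene; blue bars are territory nearest to a cadherin or protocadherin, grey bars that of all protein-coding genes, and numbers over the bars count regions. Blue lies above grey only up to 10 kb, on 10 regions.

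Some of these distant regions were among the strongest of the lists. The highest rank was at chr18:17999270-18000151, 1190 kb from Cdh2, with folds of 22.2, 36.4 and 18.3 in replicates 1, 2 and 3 and a mean percentile of 0.0324. At 169 kb from Cdh2, chr18:16418659-16419704 had folds of 18.2, 20.5 and 17.1 and a mean percentile of 0.153. At 614 kb from Cdh11, chr8:102017604-102018397 had 11.7, 20.0 and 9.71, and at 696 kb from Pcdh9, chr14:92316539-92317633 had 11.3, 14.0 and 11.7. These regions were picked for their rank, and each ranked above the best region near the same gene. Other genes had the reverse order. The best distant and near regions had mean percentiles of 13.3 and 1.86 at Cdh18 and of 38.4 and 7.22 at Cdh12. Pcdh20 had no region within 10 kb and was nearest to 9 regions beyond it, 8 of them at 100 to 500 kb. A nearest gene is a label by position and is not a measured target.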

How the data were processed

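Fos ChIP-seq peak lists of 3 saline and 3 kainic acid libraries were used, 1 list per library and none pooled. Per the submitters' processing notes, the tools included Trim Galore 0.6.4, Bowtie2 2.3.4.3, MACS2 and deepTools 3.5.0 and the build was mm10, the UCSC name of GRCm38. The peak cutoff and which library served as control are not given in the sources used here. The authors' fold is a ratio, on a linear scale, of each deposited peak to its background, and is given per library. How that background was set is not stated. Their deposited −log10 p-value and −log10 q-value are likewise per library, and the authors' score equals 10 times the −log10 q, rounded down. These values were used only to filter, rank or describe peaks within a list.

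Peaks overlapping by at least 1 bp were merged, and regions were assigned to gene spans plus 10 kb (Python 3.11.15, pandas 2.3.3, scipy 1.17.1). The code returned 100% of the regions per gene for 2000 genes on simulated data. Depth is unknown, so a missing peak is a peak not called. Groups of libraries were compared by an exact permutation test over libraries. Gene groups were read against length classes without a test, since the genes and lists were chosen with earlier results of these data known. Gene names fall under fixed rules: the 12 genes with most regions, the 10 with the best mean percentile of fold, the 5 densest with at least 3 regions, all with no region or with a saline peak, and each cluster. Genes given beside these, such as Cdh6 and Pcdh10, complete the account of the 33. Alternatives were regions in all 3 lists, −log10 q of at least 5 or 10, equal numbers of peaks per list (15009), reach of 0 or 50 kb, midpoints and summits in place of overlap, and leaving out each library.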

Additional observations from a re-analysis of the deposited data

How the results depend on the processing

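The number of distinct regions near the 90 genes, 122, was 60 with regions in all 3 lists, 81 with −log10 q of at least 5, 40 with at least 10 and 61 with 15009 peaks per list, each of which admits fewer peaks. Leaving out 1 kainic acid library gave 61 to 114, with 61 without replicate 2 and 67 without replicate 3. Widening the reach from 10 to 50 kb raised the share of kainic acid peaks from 0.461% to 0.537% and the share of other cadherins with a region from 20% to 40%, through wider windows. The alternatives for other cadherins were chosen after seeing the data. The shares of all 90 genes, classical cadherins, clustered protocadherins and other protocadherins moved by less than 1.5 times in every alternative run. Leaving out 1 library gave ranges of 60% to 62.2%, 61.1% to 72.2%, 61.4% throughout and 70% throughout. The difference of 56 genes between groups ranged from 53.5 to 58, with a two-sided exact permutation p, computed as double the one-sided value, of 0.2 each time. With the replicate number as a block, the exact permutation over 3 pairs gave the same difference of 56 with p = 0.25, the smallest it allows, and the labels do not say that the numbers pair libraries. For single genes, 85 of 330 alternative values moved by 1.5 times or more, 80 of them down and 12 to 0 regions.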
